A study of Mus musculus with 6 samples.

Results

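Rsad2, Isg20, Tent5c and Apol11b were set beside 6 red cell genes, Alas2, Slc4a1, Hbb-b2, Hba-a1, Hba-a2 and Fech, in brain tissue of mice lacking Gb5 and of wild-type mice. The members were all probes annotated to these 10 genes, together with the probes annotated to several alpha or beta globin genes. They came to 24 probes, 20 of 1 gene and 4 shared by several globins, among 45037 probes and 18193 genes with a probe of their own. The genes had been picked because they were lower in knockout and stood in a like order over the arrays, so their difference between genotypes and their order are described here without a test.

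The study measured RNA of whole brain tissue, cerebellum by its title, on 6 single-colour Affymetrix expression arrays, each hybridised with RNA of a biological replicate. The knockout (KO) group held 3 Gb5-deficient mice, on the arrays numbered 4, 5 and 6. The wild-type (WT) group held 3 mice, on the arrays numbered 1, 2 and 3. Per the labels' protocols littermates of the same age and sex were used, and no treatment is named. The ages, the strain, the deleted part of the gene, the cells that lack it and whether blood was washed out of the tissue are not given in the sources used here. Values are log2 signals, on which a difference of 1 is a doubling, and levels of different probes are not comparable, so only differences within a probe are set side by side.

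Red cells fill with haemoglobin while they mature. Alas2 starts haem synthesis in this lineage and Fech ends it, the globin chains carry the haem, and Slc4a1, band 3, exchanges anions across the red cell membrane. Young red cells lose their nucleus but keep RNA for some time, so blood in a tissue carries transcripts of these genes. Rsad2, or viperin, makes an antiviral nucleotide and is a textbook interferon-induced gene, as is Isg20, an exonuclease. Tent5c lengthens poly(A) tails and is known from plasma cells and red cell development, and Apol11b belongs to the apolipoprotein L family.

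Several facts of the arrays touch the results below. Gnb5, which encodes Gb5, read 3.65, 3.36 and 2.96 on KO arrays 4, 5 and 6, against 8.80, 8.51 and 8.70 on WT arrays 1, 2 and 3. KO array 6 stood apart: a Xist probe read 6.64 there and 11.1 to 11.3 on the other arrays, and the Y-linked Eif2s3y read 11.80 there and 3.19 to 3.43 on the others, against the label of sex-matched mice. On KO array 6 the 3′ control of Gapdh also exceeded the 5′ control by 1.58, against 1.03 to 1.14 elsewhere. The 9 cerebellar genes measured averaged 12.1 to 12.5 on KO arrays and 12.3 to 12.5 on WT arrays, and 0 of them passed limma at an adjusted p of 0.05, nor at an unadjusted p of 0.05. The 10 choroid plexus genes averaged 6.68 to 8.28 on KO arrays and 7.25 to 8.81 on WT arrays, with the highest value on WT array 1 in 8 of them. In RNA of whole tissue, fewer cells of a type and less RNA per cell cannot be told apart.

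In these arrays Rsad2, Isg20, Tent5c and Apol11b were all lower in KO by about the same amount as Alas2 and Slc4a1. In 10 probes of these 6 genes the KO minus WT difference lay between -2.35 and -1.66 on the log2 scale, which is 3.17 to 5.10 times lower in KO. In each of the 10 every KO array lay below every WT array, and WT array 1 was the lowest of the WT arrays. The globins and Fech were lower by less, or not at all, as described after them.

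The brighter Rsad2 probe (1436058_at) read 7.21, 7.39 and 7.42 on KO arrays 4, 5 and 6, against 8.95, 9.76 and 9.82 on WT arrays 1, 2 and 3. The KO arrays lay close together, and WT array 1 stood between them and the other WT arrays. The KO minus WT difference was -2.17 (limma SE 0.22, n = 3 each). A second Rsad2 probe (1421009_at) read 4.52, 4.75 and 5.12 on KO arrays and 6.44, 7.30 and 7.24 on WT arrays, a difference of -2.20 (SE 0.25). The lowest WT array lay 1.32 above the highest KO array in this probe, against 1.54 in the brighter one. A further probe was dim on all 6 arrays, at 3.27 to 3.43 in KO and 3.33 to 3.52 in WT, with overlapping groups.

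Isg20 has 1 probe (1419569_a_at). It read 5.65, 5.89 and 5.94 on KO arrays 4, 5 and 6, against 6.84, 8.30 and 8.42 on WT arrays 1, 2 and 3. WT array 1 stood nearer to the KO arrays than to the other WT arrays. The difference was -2.03 (SE 0.37).

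Tent5c, in its brighter probe (1448021_at), read 8.11, 8.41 and 8.57 on KO arrays and 9.73, 10.77 and 10.75 on WT arrays, a difference of -2.05 (SE 0.27). Its second probe (1429682_at) read 5.17, 6.29 and 5.85 on KO arrays and 6.89, 7.49 and 7.93 on WT arrays, a difference of -1.67 (SE 0.32). Neither probe overlapped between the groups; the dimmer one was more spread within KO, with an SD of 0.56 against 0.24 in the brighter one.

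Apol11b had the largest difference in means of the 4 genes. Its brighter probe (1457307_at) read 5.11, 5.35 and 5.54 on KO arrays and 6.88, 8.005 and 7.86 on WT arrays, a difference of -2.25 (SE 0.28). The other (1440927_x_at) read 3.76, 4.51 and 4.88 on KO arrays and 6.16, 6.99 and 7.04 on WT arrays, a difference of -2.35 (SE 0.32). The _x_ in a probe name marks oligos that may also bind other transcripts, and Apol11b has close relatives in mouse, so the second value may not be of Apol11b alone.

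Alas2, the erythroid enzyme that starts haem synthesis, read 6.73, 6.88 and 7.24 on KO arrays 4, 5 and 6, against 7.98, 9.68 and 9.43 on WT arrays 1, 2 and 3 (probe 1451675_a_at). The WT arrays were spread over more than the gap between the groups: the SD was 0.26 in KO and 0.92 in WT, and the difference was -2.08 (SE 0.39). The highest KO value was on array 6, as in the brightest probes of Rsad2, Isg20, Tent5c, Apol11b and Slc4a1. Without that array the difference was -2.23.

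Slc4a1 read 6.11, 6.17 and 6.47 on KO arrays and 7.15, 8.66 and 8.64 on WT arrays in its brighter probe (1434502_x_at), a difference of -1.90 (SE 0.37). The _x_ in the name of that probe means that its value may not be of Slc4a1 alone. A second probe without the mark (1416464_at) read 5.04, 5.32 and 5.27 on KO arrays and 6.00, 7.21 and 7.41 on WT arrays, a difference of -1.66 (SE 0.33). Both probes placed WT array 1 as Alas2 and Isg20 did, closer to KO than to the other WT arrays. A further Slc4a1 probe was dim, at 4.39 to 4.49 in KO and 4.33 to 4.68 in WT, and did not separate the groups.

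**Figure D1:**
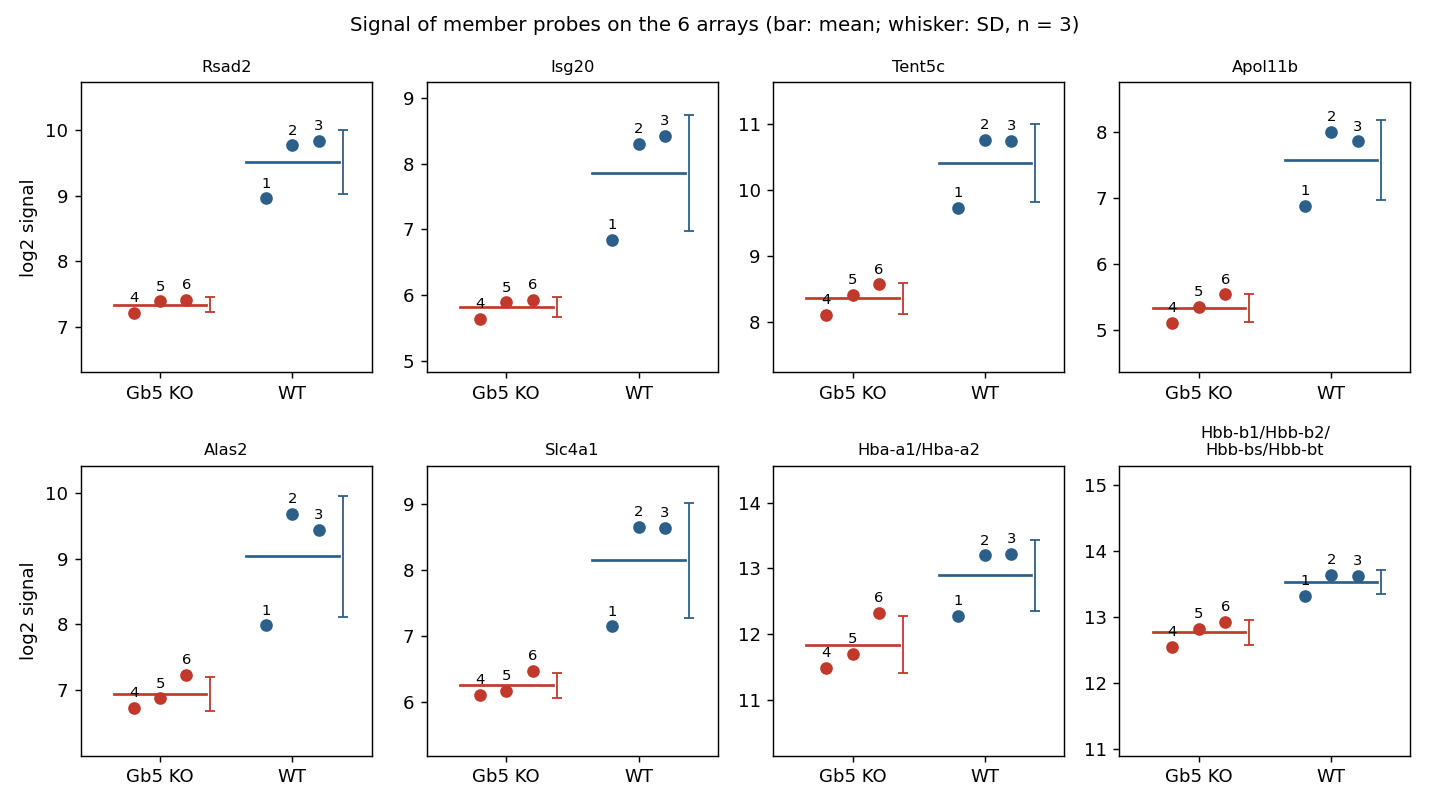
Log2 signal (vertical axis, the same span in each panel) of 8 member probes on the 3 Gb5 KO arrays (left, red) and the 3 WT arrays (right, blue); numbers are array numbers, horizontal bars are group means and whiskers are SD (n = 3). The upper 4 panels and those of Alas2 and Slc4a1 show KO arrays at least 2 log2 units below WT arrays 2 and 3, with WT array 1 between; in the alpha globin panel KO array 6, at 12.33, lies above WT array 1, at 12.27.

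The globin probes were bright and lower in KO by smaller amounts. The probe shared by the adult beta globins Hbb-b1, Hbb-b2, Hbb-bs and Hbb-bt read 12.55, 12.82 and 12.93 on KO arrays 4, 5 and 6, against 13.32, 13.64 and 13.63 on WT arrays 1, 2 and 3. The groups did not overlap, WT array 1 was again the lowest WT array, and the difference was -0.76 (SE 0.11).

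A bright probe annotated to Hbb-b2 alone (1427865_at) read 10.82, 10.50 and 10.93 on KO arrays and 11.39, 11.34 and 11.32 on WT arrays. The difference was -0.60 (SE 0.11), and whether the probe also reads the other beta globins was not tested. This probe separated the groups but not WT array 1, which was the highest of the WT arrays. The other probe annotated to Hbb-b2 was too dim to be tested and read 4.04, 3.86 and 3.99 on KO arrays and 4.39, 5.06 and 4.61 on WT arrays, without overlap.

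Of the 3 probes shared by Hba-a1 and Hba-a2, the adult alpha globins, 1 separated the groups. That probe (1452757_s_at) read 10.64, 10.90 and 11.45 on KO arrays 4, 5 and 6, against 11.60, 12.38 and 12.29 on WT arrays 1, 2 and 3, a difference of -1.09 (SE 0.24). A second (1428361_x_at) read 11.49, 11.71 and 12.33 on KO arrays and 12.27, 13.20 and 13.22 on WT arrays, a difference of -1.06 (SE 0.28), with KO array 6 above WT array 1. The third (1417714_x_at) read 8.63, 7.69 and 9.84 on KO arrays and 9.28, 10.43 and 9.73 on WT arrays, a difference of -1.09 with a wide SE of 0.50. In each of the 3 probes KO array 6 was the highest KO array, and without it the differences were -1.32, -1.30 and -1.65.

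The probes annotated to a single alpha globin gene did not follow. The Hba-a2 probe read 9.16, 9.19 and 9.06 on KO arrays and 9.10, 8.86 and 9.21 on WT arrays, a difference of 0.08 (SE 0.12) with full overlap. The Hba-a1 probe was dim, at 3.50 to 3.51 in KO and 3.20 to 3.55 in WT.

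Fech, the enzyme that inserts iron into the haem ring and is used by all cells, was lower in KO by little. Its brightest probe (1418699_s_at) read 10.18, 10.16 and 10.26 on KO arrays and 10.28, 10.77 and 10.58 on WT arrays, a difference of -0.35 (SE 0.13), the groups parted by 0.02. A second (1418698_a_at) read 9.32, 8.77 and 8.75 on KO arrays and 9.49, 9.76 and 9.37 on WT arrays, a difference of -0.59 (SE 0.18), parted by 0.05. One more overlapped between the groups, with a difference of -0.21 (SE 0.19), and the last was dim and overlapped, at 4.04 to 4.12 in KO and 3.81 to 4.11 in WT.

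Counted together, 19 of the 24 member probes were bright enough to be tested, with a mean above the 30th percentile of all probes (4.70). In 15 of the 19 all KO arrays lay below all WT arrays, as they did in 6.03% of all 31526 probes tested. In 13 of these WT array 1 was also the lowest WT array (1.70% of all probes), and in 12 KO array 4 was also the lowest KO array (0.501%). The KO mean was lower by at least 1 in 13 of 19 (0.168%). limma at an adjusted p of 0.05 called 2 of 19 lower, both of Rsad2, among the 10 probes it called lower in all (0.0317%). Since the members were chosen on this contrast, nothing is read from these counts. They rest on single arrays: limma called 8 of 19 without WT array 1 (0.0539% of all probes), and 0 without any other single array. Without WT array 1 and KO array 6 it called 10 of 19, among 18 probes called in either direction. That last setting was added after the data were seen.

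The order of the arrays can be read from their 15 pairs, 9 between the genotypes and 6 within one. Isg20 put all 15 pairs in the same order as the brighter Rsad2 probe, and Tent5c, Apol11b, Alas2 and Slc4a1, each by its brightest probe, put 14. Of all 19 member probes tested, the Rsad2 probe itself among them, 13 had at least 14 pairs in common with it, against 0.644% of all probes, and 3 had all 15 (0.165%). Against Alas2 the brightest probes of Tent5c, Apol11b and Slc4a1, the beta globin probe and 1 alpha globin probe had all 15 pairs in common. The brighter Rsad2 probe and Isg20 had 14. The second Rsad2 probe (1421009_at) had all 15 in common with Alas2 and 14 with the brighter Rsad2 probe. The share of all probes in the order of Alas2 was not computed, so nothing is read from these counts. Hbb-b2 had 11 pairs in common with Rsad2, the Fech probes 13, 10 and 8, and Hba-a2 had 7. With 3 arrays in each group, most of the shared order is the gap between genotypes, and the part within a genotype rests on 6 pairs.

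The 6 genes lower by over 1.5 did not place WT array 1 alike. Of the distance between the KO mean and the mean of WT arrays 2 and 3, WT array 1 had covered 65.9% in Rsad2, 59.6% in Apol11b and 56.9% in Tent5c. It had covered 39.9% in Isg20, 39.7% in Alas2 and 37.3% in Slc4a1. The second probes lay close to the first: 66.5% for Rsad2, 67.4% for Apol11b, 57.7% for Tent5c and 37.5% for Slc4a1. By this measure Isg20 stood with Alas2 and Slc4a1, and Rsad2, Apol11b and Tent5c stood above these 3. The other red cell members fell on both sides. The shared beta globin probe stood at 63.1%, Hbb-b2 at 109.9%, the 3 shared alpha globin probes at 44.6%, 31.6% and 40.8%, and the Fech probes at 17.4%, 87.2% and 167%, where the distance itself was small. The measure rests on 1 array and was not tested.

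Each probe was also given as its deviation from its own mean over the 6 arrays. On WT array 1 Rsad2 deviated by 0.53, Apol11b by 0.42 and Tent5c by 0.34, against -0.0024 in Isg20, -0.0061 in Alas2 and -0.05 in Slc4a1. Averaged as a set, with Isg20 included, Rsad2, Isg20, Tent5c and Apol11b deviated by -1.26, -1.02 and -0.91 on KO arrays 4, 5 and 6, and by 0.32, 1.43 and 1.44 on WT arrays 1, 2 and 3. Alas2 and Slc4a1 deviated by -1.17, -1.07 and -0.74 on KO arrays and by -0.03, 1.57 and 1.44 on WT arrays. The 2 sets differed by 0.17 or less on 5 arrays and by 0.35 on WT array 1.

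**Figure D2:**
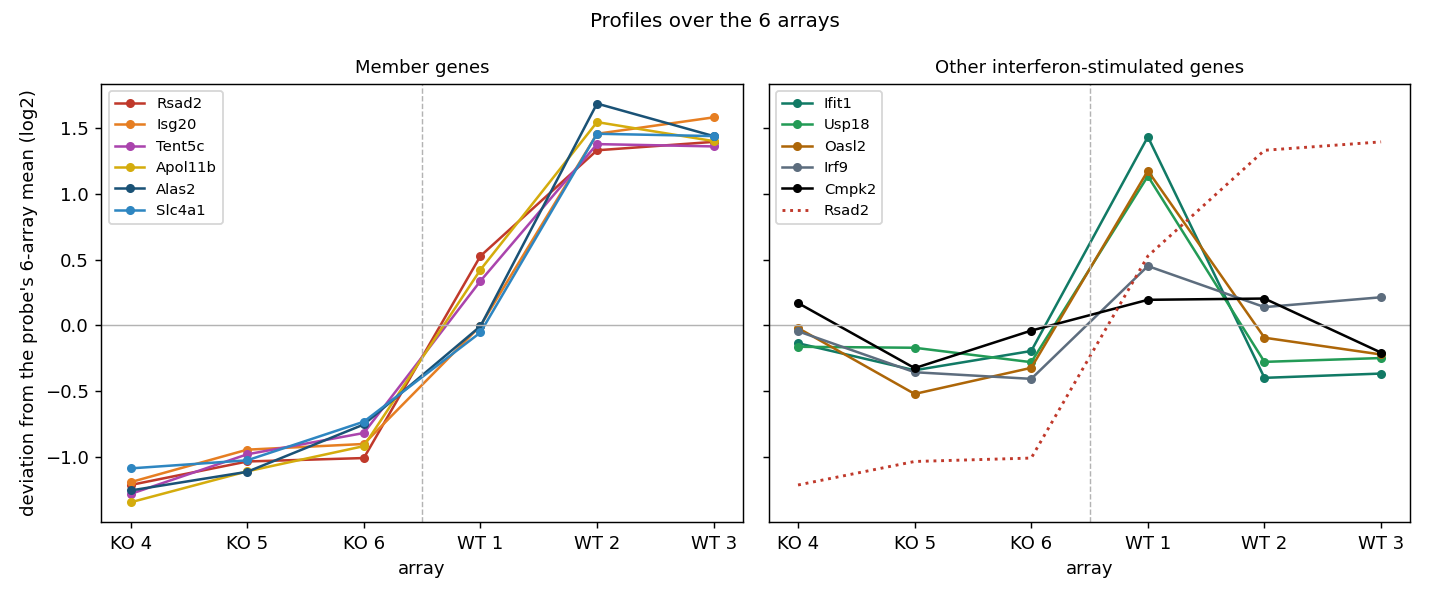
Deviation of each probe from its own mean over the 6 arrays (vertical axis, log2) on KO arrays 4 to 6 and WT arrays 1 to 3 (horizontal axis); lines only join the points of a gene. Left, the 6 lowered member genes run together and differ mainly on WT array 1, where Rsad2, Apol11b and Tent5c lie above Isg20, Alas2 and Slc4a1; right, Ifit1, Usp18 and Oasl2 peak on WT array 1, with Rsad2 dotted for comparison.

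Likeness to Rsad2 was measured as the root mean square difference between 2 such profiles over the 6 arrays, in log2, with 1 probe per gene. The members had been picked for a like order over these same arrays, so nothing is read from their near places to Rsad2 or Alas2. The median over the other 14074 genes was 1.14. Tent5c was the nearest at 0.118, then Apol11b at 0.121, Isg20 at 0.242, Slc4a1 at 0.273 and Alas2 at 0.285. The genes that followed were no members: Cap1, an actin-binding protein, at 0.423, the collagen Col12a1 at 0.447, the dopamine transporter Slc6a3 at 0.566, Gm19531 at 0.650, the mitochondrial iron importer Slc25a37 at 0.656, Gm3515 at 0.695 and the matricellular Ccn3 at 0.726. Of the members with a probe of their own, Hbb-b2 ranked 51, Fech 118 and Hba-a2 9269. The shared globin probes, ranked among all probes and not among genes, included 2 alpha globin probes at 0.574 and 0.595, closer to Rsad2 than Gm19531, Slc25a37, Gm3515 and Ccn3. The third alpha globin probe was at 0.847 and the beta globin probe at 0.728. The measure rewards a like size of difference as well as a like order, and with each profile scaled to its own SD 3 members were among the 12 nearest in place of 5. Apol11b ranked 1, Tent5c 2 and Isg20 10 on that scale, while Alas2 ranked 13 and Slc4a1 15, so no red cell member was among the 12.

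Seen from Alas2 the nearest genes were Slc4a1 at 0.123 and Isg20 at 0.146, then Apol11b at 0.200, Tent5c at 0.201 and Rsad2 at 0.285. Tmem267, at 0.655, was the next gene, followed by Slc6a3, Cap1, Col12a1, the peptide transporter Slc15a2, Slc25a37 and Gm3515. With each profile scaled to its own SD, Slc4a1 ranked 1 from Alas2, Isg20 2, Tent5c 3, Apol11b 4 and Rsad2 10. Cap1 and Col12a1, the nearest to Rsad2 outside the members, did not set WT array 1 apart from the other WT arrays as Rsad2 did. Cap1 read 7.89, 8.71 and 7.64 on KO arrays 4, 5 and 6, against 10.45, 10.52 and 10.56 on WT arrays 1, 2 and 3. Col12a1 read 4.44, 4.74 and 4.43 on KO arrays and 6.92, 6.31 and 6.65 on WT arrays, with WT array 1 the highest. Slc6a3 read 11.20, 10.19 and 10.66 on KO arrays and 11.75, 12.14 and 12.15 on WT arrays, with WT array 1 the lowest of its group.

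**Figure D3:**
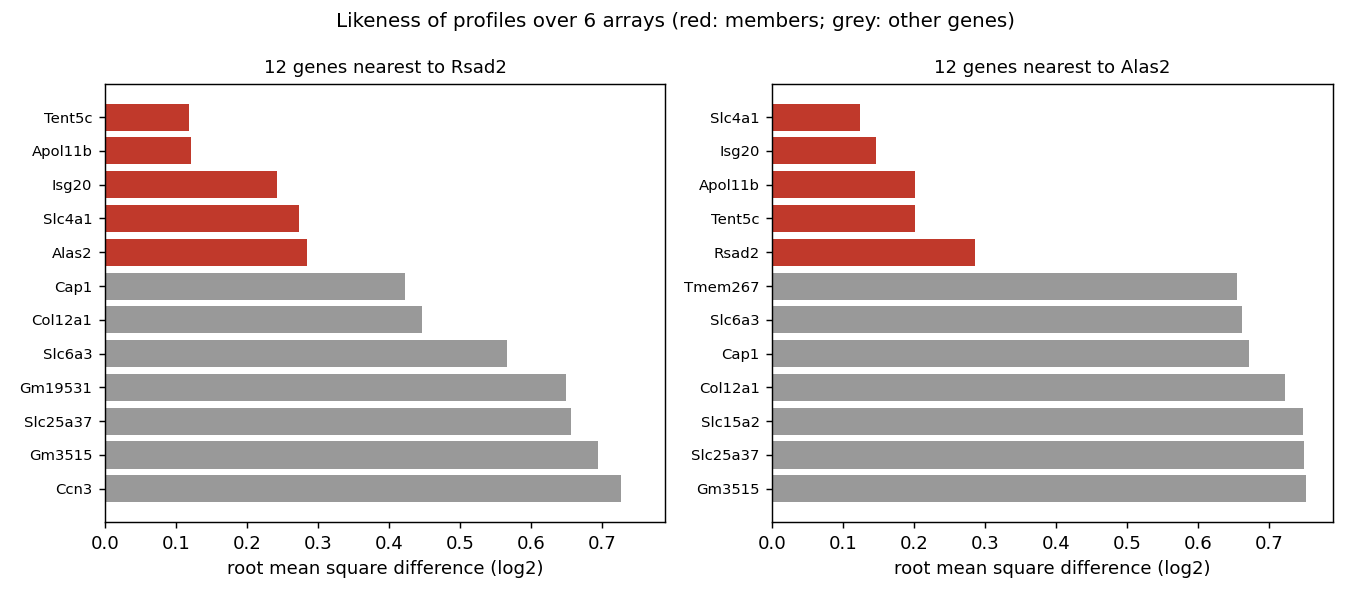
Root mean square difference over 6 arrays (horizontal axis, log2; shorter bars mean more alike) of the 12 genes nearest to Rsad2 (left) and to Alas2 (right), 1 probe per gene; red bars are members and grey bars other genes. In both panels the first 5 genes are members, ending at 0.285, and the next bar is at 0.423 on the left and 0.655 on the right. Members were picked for a like order over these arrays, so nothing is read from their places.

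The promoters of Rsad2, Apol11b, Isg20 and Alas2 are shown because the data set these genes side by side, and known interferon-response and erythroid promoters often carry the words searched for. In RefSeq sequence (GRCm38.p6) 9 promoters of 7 member genes were searched. Fech was left out of the search, and Slc4a1 and Hbb-b2 had no promoter entry. The 250 bases before each start were searched on both strands for GAAANNGAAA, a word of interferon-response elements, and for AGATAA or TGATAA, words bound by GATA factors of the red cell lineage. The first word is in 2.98% of all 32851 promoters of that length and the second pair in 16.6%. Sequences run 5′ to 3′ on the gene's strand, and capitals mark the matches, on whichever strand they were found; no 2 of them overlap. Rsad2 lies at chr12:26456453-26456702 (minus strand), with GAAANNGAAA at base -120, counted back from the start. Apol11b lies at chr15:77643287-77643536 (minus), with GAAANNGAAA at -50 and a GATA word at -83. The third annotated start of Isg20 is at chr7:78913985-78914234 (plus), with a GATA word at -33, and Alas2 is at chrX:150547167-150547416 (plus), with a GATA word at -86.
Rsad2: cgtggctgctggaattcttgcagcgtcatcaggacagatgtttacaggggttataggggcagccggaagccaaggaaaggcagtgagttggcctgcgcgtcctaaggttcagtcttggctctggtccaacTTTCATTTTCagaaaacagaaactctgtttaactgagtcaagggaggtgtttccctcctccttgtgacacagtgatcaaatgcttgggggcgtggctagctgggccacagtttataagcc
Apol11b: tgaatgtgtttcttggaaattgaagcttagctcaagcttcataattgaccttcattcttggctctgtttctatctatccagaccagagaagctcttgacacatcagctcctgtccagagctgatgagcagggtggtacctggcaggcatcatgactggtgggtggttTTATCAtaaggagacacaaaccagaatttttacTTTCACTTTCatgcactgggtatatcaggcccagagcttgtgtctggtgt
Isg20: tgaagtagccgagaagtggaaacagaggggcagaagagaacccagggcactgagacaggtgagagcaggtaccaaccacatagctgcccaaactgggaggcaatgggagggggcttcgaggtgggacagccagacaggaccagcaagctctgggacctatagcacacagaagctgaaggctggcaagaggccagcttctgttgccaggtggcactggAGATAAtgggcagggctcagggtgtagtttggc
Alas2: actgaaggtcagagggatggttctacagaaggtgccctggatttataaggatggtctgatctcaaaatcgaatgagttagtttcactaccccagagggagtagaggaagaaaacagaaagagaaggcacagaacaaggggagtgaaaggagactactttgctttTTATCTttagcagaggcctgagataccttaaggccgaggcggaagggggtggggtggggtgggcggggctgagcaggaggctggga

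Of the 9 promoters searched, 2 held GAAANNGAAA and 5 held a GATA word. The other GATA words were those of Hba-a1 and Hba-a2, at -183 and -186, and the other 2 starts of Isg20 and the start of Tent5c held neither word. A match is a run of letters and not a shown binding site, and a window without a match says nothing of a factor. The lowered genes are not neighbours: Rsad2 is on chromosome 12, Apol11b on 15, Tent5c on 3, Slc4a1 on 11 and Alas2 on X, and Isg20 lies on 7, as do the beta globins.

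As a list, other interferon-induced genes did not follow Rsad2. Of 51 symbols listed, 37 were measured above the filter. The list also holds the interferon receptor chains Ifnar1 and Ifnar2, and it names 1 gene by 2 symbols, Ddx58 and Rigi. Of the 37, 0 passed limma at an adjusted p of 0.05, as did 0.0349% of all probes. The smallest adjusted p by limma was 0.435. At an unadjusted p of 0.05 by limma, 2 were lower and 1 higher, the receptor chain Ifnar2 with a difference of 0.34. Over all genes 2.70% were lower and 5.27% higher. Their median difference was -0.07, against 0.03 over all 14075 genes, with 24 of 37 below 0, as were 43.3% of all genes. WT array 1 was the highest of all 6 arrays in 22 of the 37, against 15.7% of all genes, and was the lowest WT array in 5, against 45.3% of all genes. All KO arrays lay below all WT arrays in 3 of the 37, and in 678 of all 14075 genes. Below the filter, Ube2l6 read 3.29, 3.04 and 3.04 on KO arrays and 3.36, 3.64 and 3.75 on WT arrays, without overlap. The other interferon-induced genes below the filter overlapped between the groups.

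Cmpk2, the nucleotide kinase gene next to Rsad2 and often induced with it, read 8.09, 7.59 and 7.88 on KO arrays 4, 5 and 6, against 8.11, 8.12 and 7.71 on WT arrays 1, 2 and 3. The groups overlapped and the difference was -0.13. Ifit1, an RNA-binding antiviral protein, read 4.70, 4.50 and 4.64 on KO arrays and 6.27, 4.44 and 4.47 on WT arrays. WT array 1 alone was high, and the difference of -0.45 became 0.16 without it. Usp18, a brake on interferon signalling singled out after its values were seen, read 5.58, 5.57 and 5.46 on KO arrays and 6.88, 5.46 and 5.49 on WT arrays, and Oasl2 read 4.93, 4.43 and 4.62 on KO arrays and 6.12, 4.85 and 4.73 on WT arrays.

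Irf9, part of the factor that binds interferon-response elements, was the interferon gene with the smallest adjusted p, 0.435 by limma. It read 7.55, 7.24 and 7.19 on KO arrays and 8.04, 7.73 and 7.81 on WT arrays, a difference of -0.54, without overlap and with WT array 1 the highest. Samd9l had a difference of -0.50. Thus in Ifit1, Usp18, Oasl2 and Irf9 WT array 1 lay above the other WT arrays, while in Rsad2, Isg20, Tent5c and Apol11b it lay below them. A test of that contrast between genes was not made.

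**Figure D4:**
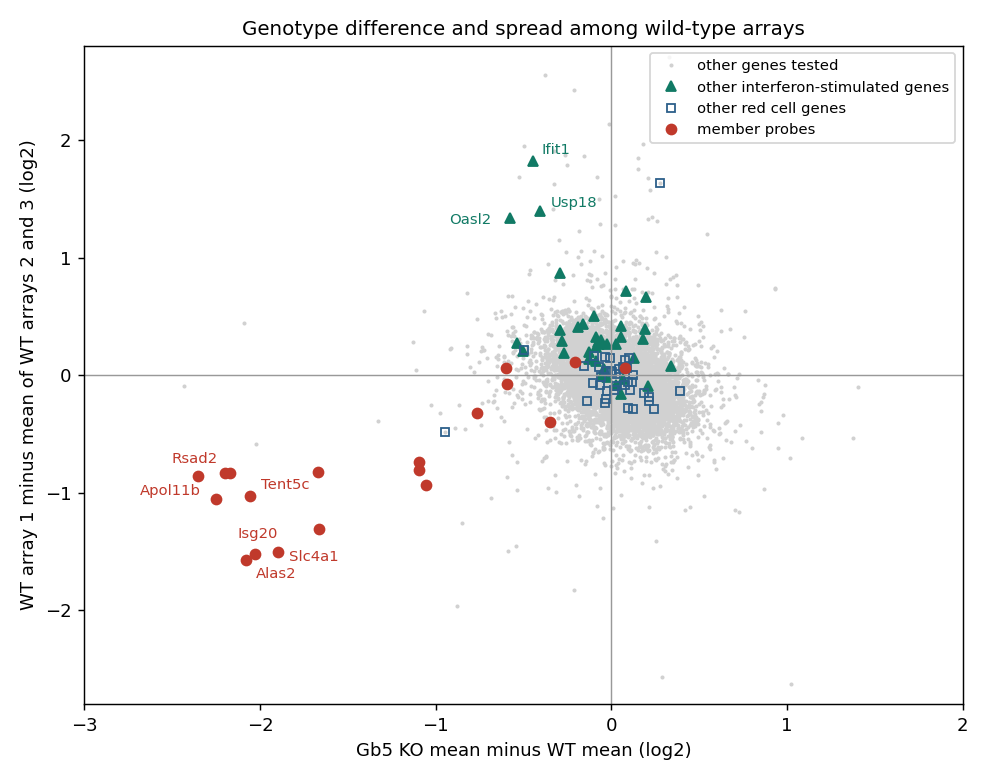
KO minus WT difference (horizontal axis, log2) and WT array 1 minus the mean of WT arrays 2 and 3 (vertical axis, log2), 1 probe per gene besides the members. Shown are the 19 member probes tested (red) and 37 genes of the interferon list, receptor chains included (green triangles). The 38 other red cell genes are blue squares and all other genes tested are grey. The lowered members lie at lower left, while Ifit1, Usp18 and Oasl2 lie above most other genes, at -0.45, -0.41 and -0.58 on the horizontal axis.

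Other red cell genes did not pass the test and had values on both sides of 0. Of 69 listed, 38 were measured above the filter, and 0 passed limma at an adjusted p of 0.05. At an unadjusted p of 0.05, 2 were lower and 1 higher, and the median difference was 0.03, as over all genes. Several of the 38 were bright in both groups: Tfrc averaged 13.1 in KO and 13.2 in WT, and Urod 12.3 in both. How much of the list's signal came from red cells was not tested, so its median does not measure red cell RNA. Below the filter were defining red cell markers: Klf1, a master regulator, read 4.55 to 4.65 in KO and 4.37 to 4.93 in WT, and Rhag, an ammonia channel of the membrane, read 2.77 to 2.89 in KO and 2.84 to 2.87 in WT. The membrane protein Epb42 read 3.33, 3.54 and 3.37 on KO arrays and 3.38, 3.77 and 4.10 on WT arrays, and Ahsp was not analysed here.

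Of 13 haem and iron genes measured, 0 passed limma at an adjusted p of 0.05, and 2 were lower and 1 higher at an unadjusted p of 0.05. Among them Slc25a37, which brings iron into mitochondria of developing red cells, differed by the largest amount. It read 7.92, 7.88 and 7.44 on KO arrays 4, 5 and 6, against 8.37, 8.75 and 8.96 on WT arrays 1, 2 and 3. The groups did not overlap and WT array 1 was the lowest of its group, with a difference of -0.95 (SE 0.19) that did not pass (limma adjusted p = 0.274). Cpox, a late enzyme of haem synthesis, had a difference of -0.50, Alad, an early one, of 0.39, and the porphyrin transporter Abcb6 of 0.24, and the list's median was 0.08.

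Of 10 membrane genes 0 passed limma, adjusted or unadjusted, with differences from -0.04 to 0.28. The water channel Aqp1 had 0.28, Gypc 0.21, Ermap 0.18 and the adducin Add2 0.09. Aqp1 is also abundant in choroid plexus, and its values of 4.54, 6.14 and 6.15 on KO arrays and 6.42, 4.84 and 4.74 on WT arrays had the same high arrays, KO 5 and 6 and WT 1, as the choroid plexus list. Of 14 regulators and late-stage red cell genes 0 passed limma, adjusted or unadjusted, with differences from -0.14 for Tal1 to 0.22 for Ube2o, and with 0.12 for both Blvrb and Lyl1. The embryonic globin Hbb-bh1, the only other globin above the filter with a probe of its own, had -0.15.

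Of 4 relatives of Isg20, Tent5c and Apol11b measured, 0 passed limma at an adjusted p of 0.05 and 1 was lower at an unadjusted p of 0.05. No relative of Rsad2 was listed. The apolipoprotein L relative Apold1 had -0.36, the poly(A) polymerase Tent5a -0.21, and the exonucleases Isg20l2 and Aen had -0.07 and 0.02.

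Genes of other blood cells were set beside the members as markers of blood. Of 5 neutrophil genes measured 0 passed limma, adjusted or unadjusted, and all 5 differences were above 0, with a median of 0.20. S100a9, an abundant neutrophil protein, averaged 8.87 ± 0.15 on KO arrays and 8.49 ± 0.39 on WT arrays (SD, n = 3 each), a difference of 0.37, and S100a8 had 0.37, Ngp 0.20 and Mmp9 0.15. The mean of the list was 6.82 to 7.18 on KO arrays and 6.59 to 7.18 on WT arrays, so it did not follow the red cell genes.

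Of 7 platelet genes measured 0 passed limma at an adjusted p of 0.05, 2 were lower and 1 higher at an unadjusted p of 0.05, and the median difference was -0.19. In all 7 WT array 1 was the lowest WT array, against 45.3% of all genes. It was also the lowest in 10 of the 13 haem and iron genes and in 20 of all 38 other red cell genes. Among other blood cells it was the lowest in 3 of the 4 lymphocyte genes and 0 of the 5 neutrophil genes. The integrin Itgb3 had a difference of -0.74, the receptor Clec1b -0.59, Treml1 -0.41, Gp1bb 0.39 and Pf4 -0.02. Of the 4 below the filter, Ppbp, a platelet chemokine, read 3.67, 3.76 and 3.82 on KO arrays and 4.66, 5.14 and 4.95 on WT arrays, a difference of -1.17. Tubb1, the platelet tubulin, read 3.42, 3.86 and 3.65 on KO arrays and 4.03, 4.56 and 4.79 on WT arrays, a difference of -0.81. Neither overlapped between the groups, and WT array 1 was the lowest WT array in both, as in the lowered members; Gp5 and Gp6 overlapped, with 0.09 and 0.22. Among the 7 measured genes the mean was 6.16 to 6.27 on KO arrays and 6.26 to 6.62 on WT arrays, the lowest WT value being that of array 1. The platelet list thus shared with the lowered members that WT array 1 was the lowest WT array. Unlike in those members, its mean there, 6.26, lay just below that of KO array 6, 6.27, and KO array 5 was the lowest KO array. The list's part in the members' values was not tested. The 4 lymphocyte genes measured had a median of -0.06, the 12 endothelial genes 0.01, the 9 meningeal genes -0.11, the 10 choroid plexus genes -0.09 and the 9 cerebellar genes -0.07, with 0 passing limma at an adjusted p of 0.05 in each. At an unadjusted p of 0.05, 1 endothelial gene was higher and 3 meningeal genes were lower.

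**Figure D5:**
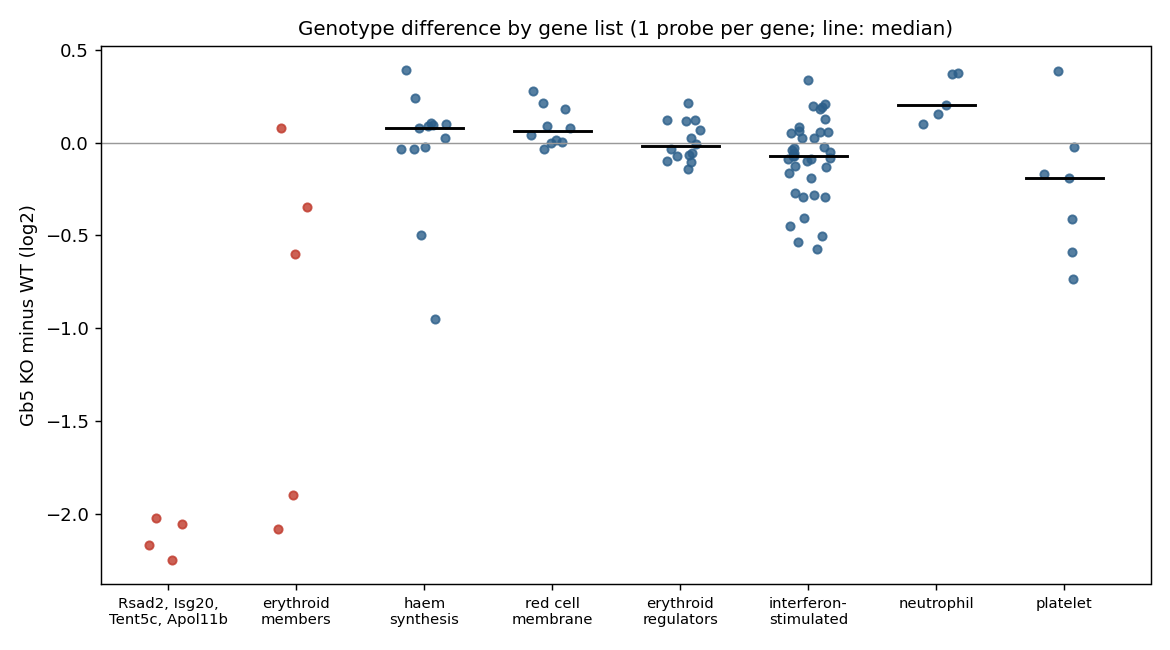
KO minus WT difference (vertical axis, log2) of every gene above the filter in 8 lists, 1 probe per gene; red points are members, blue points other genes, and black lines the medians of the other lists. Rsad2, Isg20, Tent5c and Apol11b lie near -2, with Alas2 and Slc4a1 beside them, while the medians of the 6 other lists lie between -0.19 and 0.20.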

How the data were processed

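RNA of 3 Gb5 knockout and 3 wild-type mice was measured on single-colour arrays, labelled as biological replicates, 1 array each. The values the authors deposited are on the log2 scale, with 1 value for each probe on each array. The submitters' processing notes name RMA and Partek without versions. RMA removes background, gives all arrays the same distribution and combines the oligos of a probe, so a change in the total amount of RNA would not be seen. No scan dates or detection calls were used here, so batches could not be tested and no probe could be called absent. Array medians were 6.48 to 6.57, and the number of arrays limits the precision.

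The table held 45101 probes, 64 of them controls. The platform annotation pairs 34945 other probes with 1 gene and 932 with several, and 9160 have no listed gene; 34741 symbols were updated through RefSeq (GRCm38.p6). Probes with a 6-array mean above the 30th percentile (4.70) were kept, 31526 in all. limma 3.58.1 in R 4.3.3 fitted knockout minus wild type per probe, with empirical Bayes and an intensity trend, two-sided, Benjamini-Hochberg adjusted over all probes, threshold 0.05. The fit was tested on simulated data. Lists used 1 probe per gene, the brightest (14075 genes), and adjusted p-values are those of the fit on all probes.

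The members and lists were chosen with earlier results of these data known. Named genes are every member, the 12 nearest to Rsad2 and to Alas2, Cmpk2, Gnb5, Xist and Eif2s3y, and, of each list, any that passed and the 4 others with the largest difference; the lymphocyte, endothelial, choroid plexus, meningeal and cerebellar lists are given as summaries only. Defining red cell markers, platelet genes below the filter, Pf4, Usp18, Ube2l6, Tfrc and Urod were named besides. Alternatives were other filters, variance models, normalizations and thresholds, 1 probe per gene, and arrays left out; leaving out WT array 1 and KO array 6 together was added after seeing the data.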

Additional observations from a re-analysis of the deposited data

How the results depend on the processing

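No paired analysis was possible because the array numbers, 1 to 6, are not shared between the genotypes. The members kept their direction in all but 1 of 252 refitted values; the exception was Hba-a2, at -0.019 without WT array 2. The count of probes past the threshold, 11 in either direction, was 4 with a filter at the 50th percentile, 7 without the intensity trend, 5 with 1 probe per gene, 18 without WT array 1 and KO array 6, and 6 to 19 with 1 array left out. Of these, 2 member probes were lower, against 1, 0, 1 and 10 in the same alternatives and 0 to 8 with 1 array left out; WT array 1 gave the highest count. The median of the other red cell genes, 0.03, was 0.00011 with array medians subtracted. With profiles scaled to their own SD, 3 members in place of 5 were among the 12 genes nearest to Rsad2, Alas2 and Slc4a1 dropping out. Seen from Alas2 on that scale, Slc4a1, Isg20, Tent5c, Apol11b and Rsad2 all ranked 10 or nearer. Some values near 0 changed sign. With 1 array left out Ifit1 ran between -0.76 and 0.16, Usp18 between -0.65 and 0.059, Isg20l2 between -0.15 and 0.020, Aqp1 between -0.023 and 0.82, Cmpk2 between -0.26 and 0.0014, and Aen between -0.13 and 0.11. Without WT array 1 and KO array 6 Ifit1 was 0.14, Usp18 0.10 and Isg20l2 0.048, and with array medians subtracted Aen was -0.0056. The cause was not tested. Dim signal limits what 5 of the 24 member probes, below the filter, can show.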

Other observations

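Over all probes, and not only the brightest of each gene, 1 probe outside the members came close to Alas2, and it was singled out after its values were seen. A Dlc1 probe read 5.12, 5.17 and 5.28 on KO arrays 4, 5 and 6, against 5.74, 7.70 and 7.58 on WT arrays 1, 2 and 3. Its root mean square difference was 0.204 to Alas2 and 0.402 to Rsad2, and WT array 1 stood at 22.5% of the way to the other WT arrays. The 3 other Dlc1 probes had differences of -0.04, -0.12 and -0.15. The one at -0.12 was dim, at 3.42 to 3.89, and could show little. The probe close to Alas2 thus did not behave as the other bright probes of its gene. A probe with no listed gene read 6.76, 7.004 and 6.87 on KO arrays and 7.06, 8.46 and 8.31 on WT arrays, with WT array 1 at 11.8%.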
